A study of Mus musculus with 14 samples.

Results

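Cells of the adult mouse dentate gyrus that carried a Nestin-GFP transgene were separated by how strongly they stained for reactive oxygen species (ROS), and the class with the highest ROS was compared here with the middle class. The comparison took 9 of the 14 libraries of the series, chosen by the class in the sample titles: 4 libraries of GFP+ROS+++ cells (ROS+++) and 5 libraries of GFP+ROS++ cells (ROS++). The remaining 5 libraries, of GFP+ROS+ cells, entered the fit only to estimate the spread. The mice, labelled B6.Cg-Tg(Nes-EGFP)1Yamm, carry a transgene in which a Nestin regulatory sequence drives enhanced GFP, and no class had been treated. Tissue was dissociated enzymatically, and cells were separated by flow cytometry on GFP and on the fluorescence of dihydroethidium, a dye that becomes fluorescent when superoxide and related oxidants act on it. The labels give no age beyond adult, no sex and no tie between libraries and animals, so each p-value below measures only the spread between these libraries, which may in part be technical.

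The dentate gyrus is one of the few regions of the adult mammalian brain where neural stem cells, the radial glia-like cells, go on to make intermediate progenitors, neuroblasts and granule neurons. Nestin is an intermediate filament protein of these stem cells, and it is also made by pericytes, the contractile cells that wrap capillaries, by reactive astrocytes and by some precursors of oligodendrocytes. A GFP gate driven by Nestin can therefore hold several cell types. Immediate early genes are switched on soon after a cell receives a stimulus, and heat shock chaperones when proteins misfold.

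The deposited table listed 15119 genes. Recovered reads summed to between 18325361 and 23454022 per library in ROS++ and to between 12704227 and 20998589 in ROS+++. The 10 genes with the most reads held 5.62% to 7.23% of the reads in each ROS++ library and 11.2% to 12.1% in each ROS+++ library, and relative log expression factors, which set the typical gene equal across libraries, were 1.01 to 1.15 in ROS++ and 0.763 to 0.844 in ROS+++. Each level below is in CPM (reads of a gene scaled to the library total), and each change is ROS+++ minus ROS++ on the log2(CPM + 1) scale, which understates the change of genes with few reads. In the first principal component, with 54.2% of the variance, the classes did not overlap, and the second, with 9.88%, set ROS++ 5 apart from the other libraries. Reads of 4 Y-linked genes (Ddx3y, Eif2s3y, Kdm5d and Uty) averaged 96.9 to 160 CPM in 4 ROS++ and 3 ROS+++ libraries, but 0.123 CPM in ROS++ 5, 0.236 CPM in ROS+++ 4 and, in the class outside the comparison, 0.211 CPM in ROS+ 5. These 3 libraries carry consecutive library numbers in the labels, which do not say what the numbers mean. Counts over all genes are therefore also given without them.

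Both classes differed at a large share of genes, and the balance of increases and decreases depended on the scaling. With library totals, 1493 of 15102 genes tested were higher in ROS+++ (9.89%) and 4405 were lower (29.2%) at an adjusted p under 0.05 (limma). With relative log expression factors, 2825 were higher (18.7%) and 2587 were lower (17.1%). Increases made up 25.3% of the calls under the first scaling and 52.2% under the second, and the median change over all genes was -0.34 and 0.03, a shift of 0.37. No gene was called in opposite directions: all 1493 genes higher with totals were also higher with factors, and all 2587 genes lower with factors were also lower with totals. In all, 39.1% of genes were called with totals and 35.8% with factors. A further 1818 genes were lower only with totals, and 1332 were higher only with factors. With totals every ROS+++ library lay above every ROS++ library at 1130 genes (7.48%) and below at 2946 (19.5%), and with factors at 2137 (14.2%) and 1680 (11.1%). Genes called under both scalings and without overlap in both numbered 1064 higher (7.05%) and 1620 lower (10.7%). Leaving out ROS++ 5 and ROS+++ 4 gave 1291 higher and 4222 lower with totals, and 2578 and 2431 with factors. Leaving out ROS+ 5 as well gave 1255 and 4049 with totals, and 2487 and 2334 with factors.

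**Figure D1:**
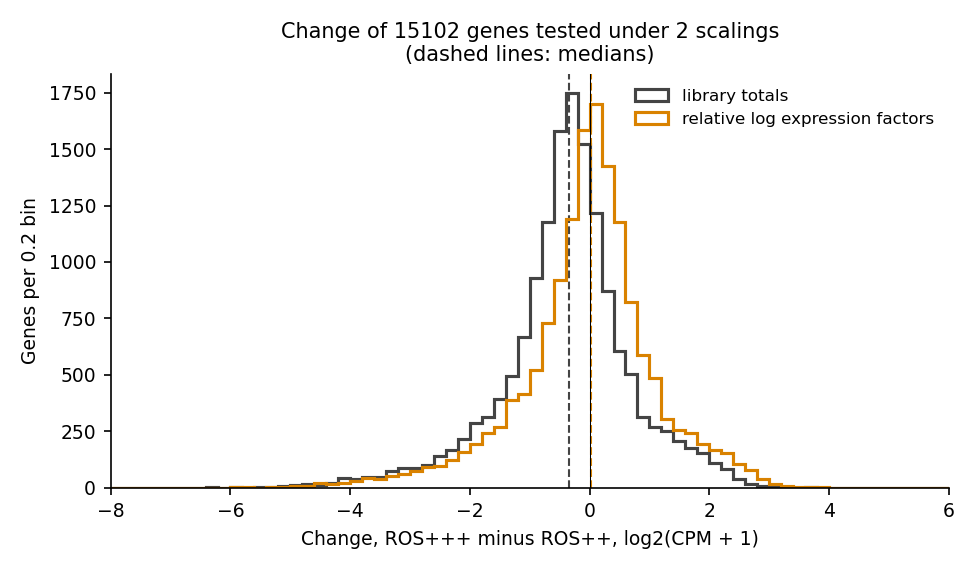
Number of genes (y axis, per bin of 0.2) by change between ROS+++ and ROS++ (x axis, log2(CPM + 1)), for 15102 genes tested with library totals (grey) and with relative log expression factors (orange). Dashed lines mark the medians, -0.34 and 0.03: the second distribution is the first moved to the right, with a long tail of decreases under both.

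A few genes took much of the added reads. The 4829 genes with a higher mean level in ROS+++ gained 265323 CPM together, of which the 10 genes that gained most held 25.5% and the 100 that gained most held 55.9%. Among the 10 were Rgs5, Vtn, Malat1, Ptn, Fos, Atp13a5, Sparcl1, Rgs4 and P2ry14. Rgs5, Atp13a5, Rgs4 and P2ry14 are known from pericytes, and Vtn encodes vitronectin, a secreted adhesion protein that brain pericytes make. Below, a gene that rose, fell or changed passed the threshold with both scalings unless one is named, and its change is the difference between the means of 5 ROS++ and 4 ROS+++ libraries with totals, with an SE whose spread was estimated over all 14 libraries, the 5 ROS+ libraries included.

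Heat shock and immediate early genes were among the 12 largest increases. Hspa1a, an inducible 70 kDa heat shock chaperone (chr17:34969190-34972156, minus strand, mm10), stood at 24.5, 7.08, 14.1, 20.1 and 3.38 CPM in the 5 ROS++ libraries and at 234, 280, 321 and 422 CPM in the 4 ROS+++ libraries. Every ROS+++ library lay above every ROS++ library. The change was 4.64 ± 0.44 (SE, adjusted p = 4.72e-07) with totals and 5.04 ± 0.44 (adjusted p = 2.99e-07) with factors. Its neighbour Hspa1b rose by 3.64 ± 0.41 with totals (adjusted p = 2.68e-06), but the 2 genes are near-identical copies, so the authors' counting may have split or dropped reads between them. Dnajb1, the co-chaperone that feeds clients to the 70 kDa chaperones, stood at 47.8, 29.9, 73.5, 91.3 and 62.3 CPM in ROS++ and at 661, 999, 1114 and 1056 CPM in ROS+++. Its groups were far apart, with ROS+++ 1 the lowest of its class, and the change was 4.02 ± 0.33 (adjusted p = 1.73e-07). Hspb1, a small heat shock protein, stood at 0 to 5.13 CPM in ROS++ and at 23.7 to 29.1 CPM in ROS+++ (change 3.01 ± 0.45, adjusted p = 4.41e-05).

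Of 20 heat shock chaperone genes tested, 9 were higher and 5 lower with totals, and 12 were higher and 1 lower with factors. Among all genes 9.89% were higher and 29.2% lower with totals, and 18.7% and 17.1% with factors. The 5 lower with totals are thus near the share of all genes. The median change of the list was 0.43 with totals and 0.85 with factors, beside -0.34 and 0.03 over all genes. Besides those above, Hspa8, the constitutive 70 kDa chaperone, rose by 1.02 ± 0.09 from a range of 1246 to 1521 CPM to one of 2527 to 3279 CPM (adjusted p = 1.66e-07). The others that rose were Dnaja1, Dnajb4, Hsph1 and Bag3. Hspd1, the chaperone of the mitochondrial matrix, was lower with totals (change -0.56 ± 0.10, adjusted p = 0.000335) and not called with factors (-0.15, adjusted p = 0.376). The cytosolic Hsp90ab1 was called only with factors (0.45, adjusted p = 0.00102, against 0.04 with totals). Hspb8, a small chaperone of muscle and glia, was lower (change -2.36 ± 0.69, adjusted p = 0.0122). Hspb8 was at 0.143 CPM in ROS+++ 3 and at 17.8 to 26.4 CPM in the other 3 libraries, and without ROS+++ 3 the change was -1.27 with totals. The call with factors was lost without ROS+++ 3, ROS++ 1, ROS++ 3, ROS++ 4 or ROS++ 5 (adjusted p up to 0.067).

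Promoters of this list are shown for the heat shock element, whose core most listed members with a window hold. That element is named for such genes, so its share in the list says nothing about their changes in ROS+++. Windows of 300 bases around RefSeq transcription starts (GRCm38.p6) were searched on both strands for GAANNTTC, the core of the heat shock element, which reads the same on either strand. It occurred in 10 of the 14 members that had a window (71.4%), against 6.92% of 10876 tested genes with one. Among the 8 members with a window that were higher under both scalings, 6 held it (75.0%), and so did the 1 member with a window that was lower under both. The other phase of the element, TTCNNGAA, which can overlap it, occurred in 4 of 14 (28.6%) against 8.31%. The 120 bases before the start of 2 members follow, 5′ to 3′ on the gene's strand with GAANNTTC in capitals, at chr17:34972157-34972276 (minus strand) and chr5:135887799-135887918 (plus strand).
Hspa1a: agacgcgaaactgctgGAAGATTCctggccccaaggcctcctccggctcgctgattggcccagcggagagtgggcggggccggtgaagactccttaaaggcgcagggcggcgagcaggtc
Hspb1: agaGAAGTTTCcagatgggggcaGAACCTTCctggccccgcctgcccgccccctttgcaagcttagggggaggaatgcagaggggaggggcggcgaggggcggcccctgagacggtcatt
In the Hspa1a window the motif starts 104 bases before the transcription start, and the Hspb1 window holds 2 copies. Both members were printed because these bases hold the motif, and members without it there were passed over. A match describes the letters and shows no binding.

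Immediate early genes moved mostly together: 20 of 27 tested were higher and none lower with totals, and 24 were higher with factors (median change 1.57 and 1.99). Among all genes 9.89% were higher with totals and 18.7% with factors. The summed level of the list was 2014 to 4545 CPM in ROS++ and 12370 to 16895 CPM in ROS+++. Fosb, a subunit of the AP-1 transcription factor, stood at 101, 26.3, 97.4, 121 and 50.1 CPM in ROS++ and at 677, 710, 832 and 756 CPM in ROS+++ (change 3.40 ± 0.36, adjusted p = 2.27e-06). Egr1, a zinc finger transcription factor, stood at 317, 222, 331, 397 and 79.3 CPM in ROS++ and at 2101, 2040, 2173 and 1809 CPM in ROS+++ (change 3.10 ± 0.36, adjusted p = 1.77e-05). Both genes had non-overlapping classes, with ROS++ 2 or ROS++ 5 the lowest library. Fos rose by 2.51 ± 0.32, Jun by 2.44 ± 0.22 and Junb by 2.71 ± 0.46, and Nr4a1, an orphan nuclear receptor, rose by 2.26 ± 0.26. Feedback genes rose as well: Btg2, an antiproliferative gene, by 2.16 ± 0.19, and Dusp1, a phosphatase that switches off MAP kinases, by 1.80 ± 0.27. Myc did not pass under either scaling (change -0.36, adjusted p = 0.479, with totals). The palindrome TGACGTCA, a cyclic AMP response element, was found in 2 of 22 windows of the list (9.09%) and in 3.52% of tested genes.

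Other genes among the 12 largest increases belong to neither list. Gadd45b, a stress-induced regulator of signalling and DNA demethylation, stood at 0.6 to 23.5 CPM in ROS++ and at 26.2 to 123 CPM in ROS+++ (change 3.61 ± 0.68). Nuak2, a kinase related to AMPK, rose by 3.62 ± 0.69, or by 3.00 without ROS++ 5. Snai1, a repressor of epithelial genes, rose by 3.21 ± 0.42, and Ripk3, a kinase of necroptosis, by 3.00 ± 0.46. Nkd2, an inhibitor of Wnt signalling, rose by 3.03 ± 0.61, or by 2.39 without ROS++ 5. In each of these genes the 4 ROS+++ libraries lay above all 5 ROS++ libraries.

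**Figure D2:**
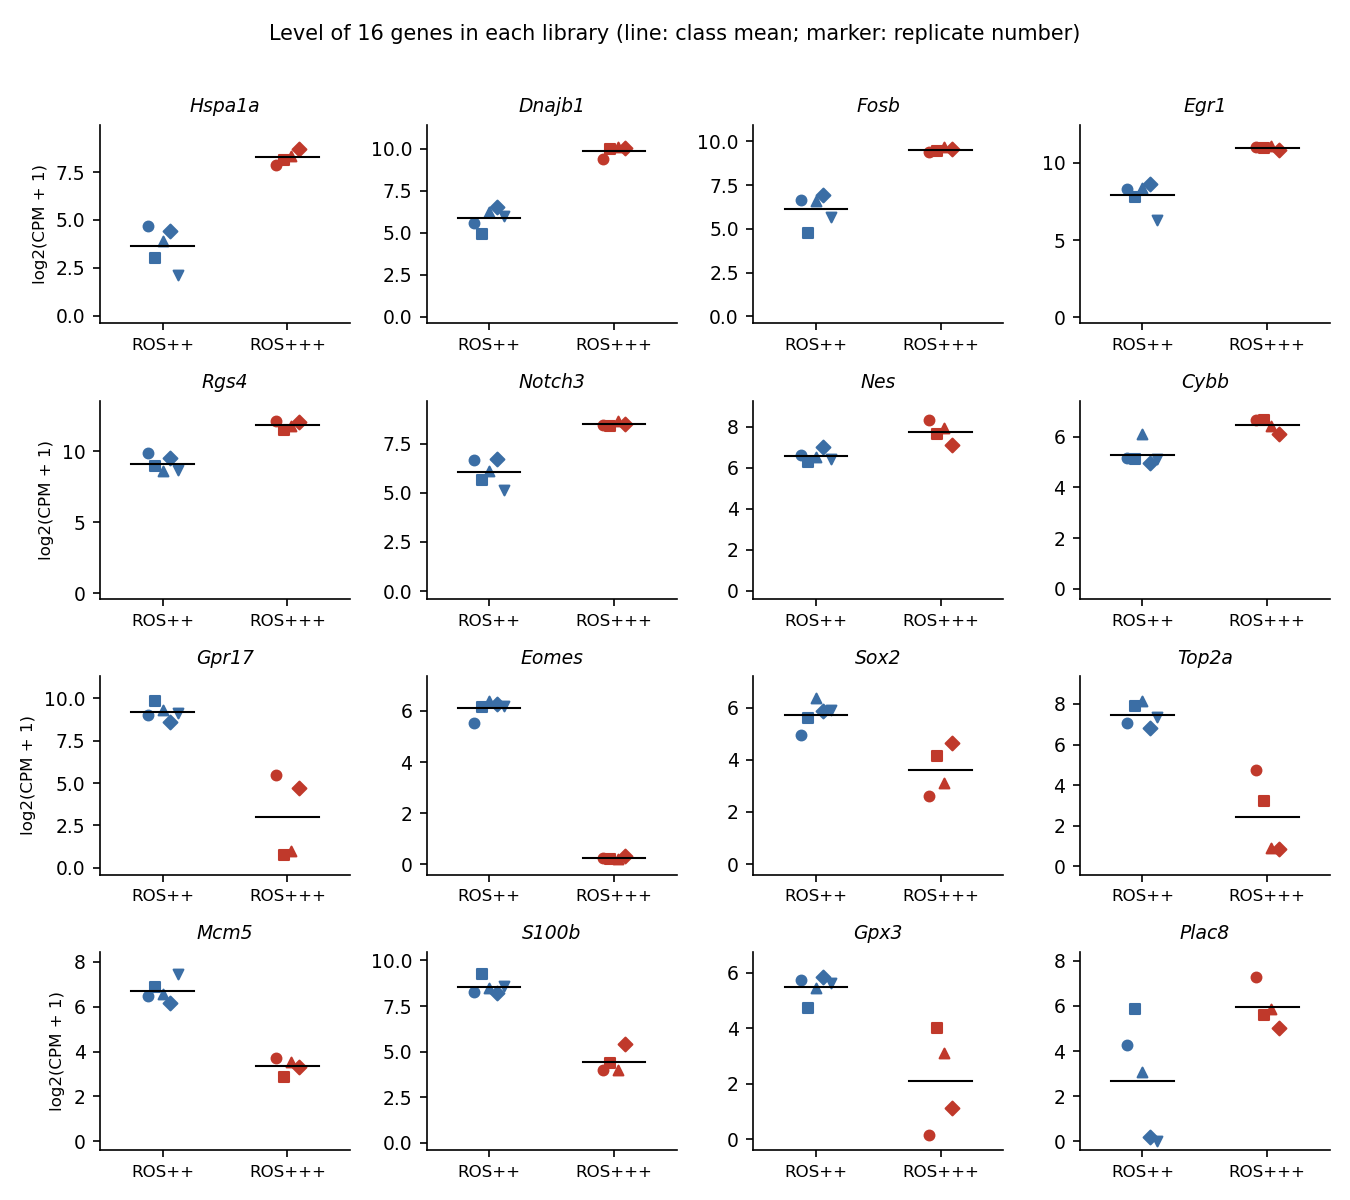
Level of 16 genes (y axes, log2(CPM + 1)) in each of the 5 ROS++ libraries (blue) and 4 ROS+++ libraries (red), with a line at the class mean and a marker for the replicate number, which names a library and pairs nothing. The upper 8 genes were higher in ROS+++; below them, Gpr17, Eomes, Sox2, Top2a, Mcm5, S100b and Gpx3 were lower, and Plac8 was higher with overlapping classes.

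Pericyte markers were higher almost without exception. With totals 19 of 20 tested were higher, with factors all 20, and the median change was 2.20 and 2.62. The share of all genes that were higher was 9.89% and 18.7%. Their summed level was 28674, 12221, 11799, 22364 and 10144 CPM in the ROS++ libraries and 70080, 66731, 77178 and 68013 CPM in the ROS+++ libraries. The 4 ROS+++ sums lay close together, and among the ROS++ libraries ROS++ 1 and ROS++ 4 stood above the other 3. In such bulk libraries more cells of a type and more RNA per cell cannot be told apart. Rgs4, a regulator of G protein signalling, stood at 921, 491, 388, 754 and 410 CPM in ROS++ and at 4571, 2895, 3516 and 4234 CPM in ROS+++ (change 2.74 ± 0.38, adjusted p = 5.5e-05). P2ry14, a receptor for UDP-glucose, rose by 2.21 ± 0.25 (adjusted p = 4.78e-06), and Higd1b by 2.24 ± 0.47 (adjusted p = 0.00177). Kcnj8 and Abcc9, the pore and the sulphonylurea receptor of the potassium channel of pericytes and smooth muscle, rose by 2.29 ± 0.55 and 1.97 ± 0.37. On the log2 values as deposited the call of Kcnj8 was lost (adjusted p = 0.067).

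Several well-known pericyte markers had larger SEs, and their calls depended on which libraries set the spread. Rgs5 stood at 9008, 3104, 3625, 8337 and 2803 CPM in ROS++ and at 19153, 24244, 25668 and 20233 CPM in ROS+++, without overlap. Its change was 2.23 ± 0.78 with an adjusted p of 0.0418, and the call was lost when any library but ROS++ 1 or ROS++ 4 was left out (adjusted p up to 0.0888). With the 9 compared libraries alone the SE of Rgs5 was 0.37 (adjusted p = 0.00186). Pdgfrb, the receptor by which pericytes are recruited to vessels, stood at 790, 331, 348, 555 and 228 CPM in ROS++ and at 2057, 1461, 1991 and 1391 CPM in ROS+++ (change 2.05 ± 0.73, adjusted p = 0.0418). That call was lost without any 1 of the 8 libraries other than ROS++ 1 (adjusted p up to 0.0885) and on the deposited log2 values (adjusted p = 0.149), whereas the 9 libraries alone gave an SE of 0.31 for Pdgfrb (adjusted p = 0.000482). Vtn missed the threshold with totals in the fit over 14 libraries: its levels of 3417 to 9843 CPM in ROS++ and 18776 to 24530 CPM in ROS+++ did not overlap, and the change was 2.11 ± 0.82 (adjusted p = 0.0613) with totals and 2.53 ± 0.83 (adjusted p = 0.0326) with factors. With totals and the 9 compared libraries alone Vtn was called (2.11 ± 0.28, adjusted p = 0.000379), and then all 20 pericyte genes were higher. Vtn was also called with voom weights (adjusted p = 8.14e-05). In the fit over 14 libraries the call of Vtn with factors was lost without any 1 library other than ROS++ 1 or ROS++ 4 (adjusted p up to 0.0713). Atp13a5, a P-type transporter, was higher by 2.10 ± 0.58 (adjusted p = 0.0126) and lost its call without ROS++ 5 and ROS+++ 4 together (adjusted p = 0.0508) and on the deposited log2 values (adjusted p = 0.0672).

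Other mural and vascular lists gave a mixed picture. Their counts stand beside 9.89% of all genes higher and 29.2% lower with totals, and 18.7% and 17.1% with factors. Of 19 smooth muscle genes, 8 were higher and 1 lower with totals and 11 and 1 with factors (median change 1.31 and 1.71). Casq2, a calcium store protein, rose by 2.45 ± 0.27 from 209 to 470 CPM to 1522 to 1773 CPM (adjusted p = 2.38e-06). Desmin (Des) rose by 2.36 ± 0.41, myosin light chain kinase (Mylk) by 2.05 ± 0.42 and Myl9 by 1.84 ± 0.39. The defining contractile genes of arterial smooth muscle were not called in the fit without a block: Acta2 stood at 438, 113, 142, 444 and 76.1 CPM in ROS++ and at 215, 372, 481 and 290 CPM in ROS+++ (change 0.78 ± 0.89, adjusted p = 0.52). Tagln (0.54 ± 0.95) and Myh11 (1.25 ± 0.77) overlapped between the classes as well, and Myh11 was higher with factors without ROS++ 1 or ROS++ 4 (adjusted p = 0.0354 and 0.0404). In all 3 genes ROS++ 1 and ROS++ 4 were the highest of their class. Ramp1, a subunit of the CGRP receptor, was lower (change -1.71 ± 0.30, adjusted p = 0.000204).

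Of 21 endothelial genes, 7 were higher and 1 lower with totals and 9 and 1 with factors (median change 1.10 and 1.50), and 14 were higher with factors without ROS+++ 3. Shares over all genes were 9.89% higher and 29.2% lower with totals, and 18.7% and 17.1% with factors. Without ROS++ 5 and ROS+++ 4 the median endothelial change was 0.37 with totals and 0.80 with factors. The genes that rose included Esam, a junction protein (change 2.15 ± 0.32, adjusted p = 5.51e-05), and Emcn, a sialomucin (2.12 ± 0.40, adjusted p = 0.000423). The summed level of the list was 474.4 to 1031.5 CPM in ROS++ and 1818.4 to 2273.6 CPM in ROS+++. Cldn5, Pecam1 and Cdh5, which define endothelial cells, were low in both classes and not called with all libraries. Cldn5, the claudin of the blood-brain barrier, stood at 0.0524, 3.49, 6.99, 0.716 and 0 CPM in ROS++ and at 4.73, 2.11, 0.619 and 5.43 CPM in ROS+++. Pecam1 reached 12.7 and 16.6 CPM in the highest library of each class, and Cdh5 reached 5.03 and 7.56 CPM. With factors Pecam1 and Cdh5 each passed when 1 certain library was left out (adjusted p = 0.0487 and 0.0311). Cldn5 did not pass whichever library was left out (lowest adjusted p = 0.0783 with factors). Mfsd2a, a lipid transporter of brain endothelium, fell by 3.57 ± 0.31 on the log2 scale, from 49.3 to 81.4 CPM to 2.1 to 11.7 CPM (adjusted p = 2.22e-07).

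The list of leptomeningeal and perivascular fibroblasts had 7 of 15 genes higher and 1 lower with totals and 8 and 1 with factors (median change 1.57 and 1.98). Among all genes 9.89% were higher and 29.2% lower with totals, and 18.7% and 17.1% with factors. The transcription factors Tbx15, Foxd1 and Foxc1, which are shared with other mesenchymal cells of the forebrain, rose by 2.62 ± 0.58, 2.20 ± 0.35 and 1.88 ± 0.37, although Foxc1 was not called on the deposited log2 values (adjusted p = 0.0897). Collagen I and lumican, which fibroblasts make in quantity, did not pass: Col1a1 stood at 0.46 to 48.5 CPM in ROS++ and at 0.859 to 5.35 CPM in ROS+++ (change -0.73, adjusted p = 0.482). Lum was above 10 CPM in 4 ROS++ libraries and, in ROS+++, only in ROS+++ 2 (13.8 CPM). With totals it passed when ROS++ 1 or ROS+++ 2 was left out (-3.25 and -3.35, adjusted p = 0.00199 and 0.00512). It also passed with the filter of 10 CPM in 4 libraries (-2.39, adjusted p = 0.0471). Pdgfra, which marks both fibroblasts and oligodendrocyte precursors, was the member that fell.

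Genes of the basement membrane, the sheet of matrix in which pericytes are embedded, rose widely. Of 34 tested, 20 were higher and 1 lower with totals, and 21 and 1 with factors (median change 1.27 and 1.65). The shares of all genes were 9.89% and 29.2% with totals, and 18.7% and 17.1% with factors. Their summed level was 4932 to 8184 CPM in ROS++ and 13087 to 15908 CPM in ROS+++. Col4a3, a chain of collagen IV, stood at 99.8, 51.4, 32.3, 104 and 37.8 CPM in ROS++ and at 326, 278, 372 and 282 CPM in ROS+++ (change 2.41 ± 0.35, adjusted p = 3.57e-05). Lama2, a laminin chain, rose by 1.37 ± 0.20, and Sparc, a collagen-binding glycoprotein, by 1.41 ± 0.23, while its relative Sparcl1 rose by 1.06 ± 0.15. Fbn1, the fibrillin of microfibrils, went the other way, from 8.66 to 14.6 CPM in ROS++ to 0.147 to 0.63 CPM in ROS+++ (change -3.09 ± 0.32, adjusted p = 1.06e-06).

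Notch signalling, by which neighbouring cells exchange signals through ligands and receptors of the membrane, split by member. With totals 6 of 21 genes were higher and 6 lower, and with factors 10 and 4 (median change -0.02 and 0.24). Over all genes, 9.89% were higher and 29.2% lower with totals, and 18.7% and 17.1% with factors. The receptor Notch3, which is typical of mural cells, stood at 101, 48.7, 68.1, 103 and 33.8 CPM in ROS++ and at 342, 335, 394 and 354 CPM in ROS+++ (change 2.43 ± 0.38, adjusted p = 8.15e-05). The ligand Jag1 rose by 1.23 ± 0.26, and the target repressors Heyl, Hey2 and Hes1 rose by 2.05 ± 0.43, 1.64 ± 0.27 and 1.63 ± 0.30. The ligands Dll1 and Dll3, which newborn neurons and progenitors present, changed by -3.28 ± 0.44 and -1.69 ± 0.31, and Hes5, the target repressor of neural stem cells, fell by 1.75 ± 0.37. Dll3 rests on 17 reads over the 4 ROS+++ libraries, so its fitted change depends on the added 1 CPM.

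Neural stem cell genes were on balance lower, although Nes itself was higher. Nes stood at 96.8, 77.6, 90, 127 and 86.3 CPM in ROS++ and at 321, 203, 248 and 137 CPM in ROS+++. The classes did not overlap, though ROS+++ 4 lay close to the highest ROS++ library, and the change was 1.19 ± 0.24 (adjusted p = 0.000716). Of 28 genes of radial glia-like stem cells, 3 were higher and 16 lower with totals, and 3 and 10 with factors (median change -1.10 and -0.70). The shares of all genes were 9.89% and 29.2% with totals, and 18.7% and 17.1% with factors. Sox2, a transcription factor required for stem cell identity, stood at 29.8, 48.1, 81.4, 57.8 and 58.6 CPM in ROS++ and at 5.06, 16.8, 7.62 and 23.9 CPM in ROS+++ (change -2.11 ± 0.36, adjusted p = 0.000179). Pax6 changed by -2.24 ± 0.24, the endothelin receptor Ednrb by -2.11 ± 0.24 and the lipid carrier Fabp7 by -1.74 ± 0.20. Gfap and Hopx, both markers of quiescent stem cells, varied within each class and were not called: Hopx stood at 21.1, 8.91, 87.1, 135 and 8.19 CPM in ROS++ and at 11.1, 47, 55.2 and 23.6 CPM in ROS+++. Id3, an inhibitor of differentiation, was higher in the median library but overlapped (change 1.22 ± 0.44, adjusted p = 0.0424), and its call was lost without ROS++ 2, ROS++ 5, ROS+++ 2, ROS+++ 3 or ROS+++ 4 (adjusted p up to 0.121) and with the 9 libraries alone (adjusted p = 0.0686).

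Astrocyte genes were called at about the share of all genes. Of 20 tested, 1 was higher and 7 lower with totals (5% and 35%, against 9.89% and 29.2% of all genes) and 2 and 3 with factors (10% and 15%, against 18.7% and 17.1%). The median change was -0.44 and -0.04, and with factors 4 were higher without ROS+++ 1 and 6 without ROS+++ 3. S100b, a calcium-binding protein of astrocytes and oligodendrocyte lineage cells, fell by 4.12 ± 0.29 from 292 to 610 CPM to 15 to 41.5 CPM (adjusted p = 5.83e-08). The potassium channel Kcnj10 fell by 2.67 ± 0.30. Atp1b2, a subunit of the sodium pump, rose by 1.38 ± 0.21, from 309 to 842 CPM to 1244 to 1437 CPM.

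Genes of the neuronal branch of the lineage were much lower in ROS+++. Of 27 genes of intermediate progenitors and neuroblasts, 21 were lower and 1 higher under both scalings, with a median change of -3.18 and -2.77. Among all genes 29.2% were lower with totals and 17.1% with factors. Their summed level was 2650, 4190, 3546, 3330 and 4623 CPM in ROS++ and 650.8, 219, 129 and 353 CPM in ROS+++. Eomes, the transcription factor that defines intermediate progenitors, stood at 45, 69.4, 82.1, 76 and 71.4 CPM in ROS++ and at 0.191, 0.147, 0.143 and 0.236 CPM in ROS+++ (change -5.86 ± 0.27, adjusted p = 3.73e-10). The ROS+++ levels rest on 13 reads in all, 3 or 4 per library, so the fitted change depends on the added 1 CPM. Neurod1 changed by -4.88 ± 0.39, Dcx, the microtubule protein of migrating neuroblasts, by -4.77 ± 0.49, Sox11 by -4.74 ± 0.48 and Prox1, the granule cell factor, by -3.67 ± 0.48. Stmn1, a tubulin-binding protein, fell by 3.18 ± 0.25. The 1 member called higher, Bhlhe22 (0.98 ± 0.37, adjusted p = 0.042), lost its call without ROS++ 4, ROS++ 5, ROS+++ 2, ROS+++ 3 or ROS+++ 4 (adjusted p up to 0.126) and with the 9 libraries alone (adjusted p = 0.115).

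Among 15 genes of mature neurons, 7 were lower and 1 higher with totals and 6 and 1 with factors (median change -1.03 and -0.79). Shares over all genes were 29.2% lower and 9.89% higher with totals, and 17.1% and 18.7% with factors. The exception was Reln, the secreted glycoprotein reelin, at 0.546 to 2.79 CPM in ROS++ and at 85, 16.2, 0.952 and 45.5 CPM in ROS+++ (change 3.21 ± 0.77, adjusted p = 0.00293). ROS+++ 3 lay within the ROS++ range, and the change was 4.30 without it and 2.48 without ROS+++ 1. With voom weights Reln was not called (adjusted p = 0.109).

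Genes of oligodendrocyte precursors had the lowest median of the 41 lists. Of 17 genes of oligodendrocyte precursors, 16 were lower under both scalings, with a median change of -4.35 and -3.99. The share of all genes that were lower was 29.2% with totals and 17.1% with factors. Neu4, a sialidase, stood at 372, 599, 370, 391 and 584 CPM in ROS++ and at 28.7, 1.23, 0.381 and 9.6 CPM in ROS+++ (change -6.34 ± 0.70, adjusted p = 1.96e-05). Gpr17, a receptor of committed precursors, stood at 530, 910, 635, 395 and 562 CPM in ROS++ and at 43.5, 0.687, 0.952 and 25.4 CPM in ROS+++ (change -6.21 ± 0.87, adjusted p = 0.000159). In both genes ROS+++ 1 and ROS+++ 4 stood above ROS+++ 2 and ROS+++ 3. The change of Neu4 ranged from -7.15 without ROS+++ 1 to -5.67 without ROS+++ 3, and that of Gpr17 from -7.05 without ROS+++ 1 to -5.47 without ROS+++ 2. The transcription factors of the lineage, Olig1, Olig2 and Sox10, changed by -5.17 ± 0.41, -4.52 ± 0.47 and -4.35 ± 0.31. Pdgfra, the mitogen receptor of precursors, changed by -4.77 ± 0.77 (-3.90 without ROS+++ 3 and -5.57 without ROS+++ 1). The exception was Cspg4, the proteoglycan NG2, which pericytes also make: it rose from 246 to 368 CPM to 436 to 536 CPM (change 0.60 ± 0.14, adjusted p = 0.00179).

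Several of the other genes among the 12 largest decreases are known from the same lineage. Enpp6, a choline phosphodiesterase of newly forming oligodendrocytes, stood at 201, 109, 211, 75 and 94.7 CPM in ROS++ and at 4.77, 0.147, 0.0952 and 1.65 CPM in ROS+++ (change -5.93 ± 0.47, adjusted p = 1.66e-07). Lhfpl3, Olfm2, Cacng4, Nxph1 and Qpct changed by -5.68 ± 0.72, -5.53 ± 0.60, -5.46 ± 0.84, -5.45 ± 0.64 and -5.37 ± 0.86, and Vxn, a regulator of neural differentiation, fell by 6.25 ± 0.58. For these 6 genes the largest decrease was found without ROS+++ 1 (-6.06 to -6.85) and the smallest without ROS+++ 2 or ROS+++ 3 (-4.36 to -5.68).

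Myelin genes were lower on balance but varied widely within ROS++. Of 20 tested, 13 were lower and 1 higher with totals and 8 and 1 with factors (median change -2.18 and -1.80). Among all genes 29.2% were lower and 9.89% higher with totals, and 17.1% and 18.7% with factors. Their summed level was 12612, 4045, 10476, 10123 and 2597 CPM in ROS++ and 997, 1307, 1002 and 1358 CPM in ROS+++. Myelin basic protein (Mbp) changed by -3.21 ± 0.48, Cnp by -3.37 ± 0.31 and Myrf, the transcription factor of myelination, by -4.08 ± 0.33. Mog and Mobp, which are made late, were as low in ROS++ 2 and ROS++ 5 (15.2 to 28.4 CPM) as in ROS+++, and they were not called with factors (adjusted p = 0.0864 and 0.0684). With totals Mog changed by -2.10 ± 0.74 and Mobp by -2.51 ± 0.87 (adjusted p = 0.0361 and 0.0332). The call of Mog was lost without any 1 library other than ROS++ 2, ROS++ 5 or ROS+++ 4, and that of Mobp without any other than ROS++ 2 or ROS++ 5 (adjusted p up to 0.0838 and 0.0759). With the 9 libraries alone neither Mog nor Mobp was called (adjusted p = 0.0872 and 0.0718). The number of the list's genes called lower was 8 with totals without ROS+++ 2, and 13 with factors without ROS++ 2 or ROS++ 5.

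**Figure D3:**
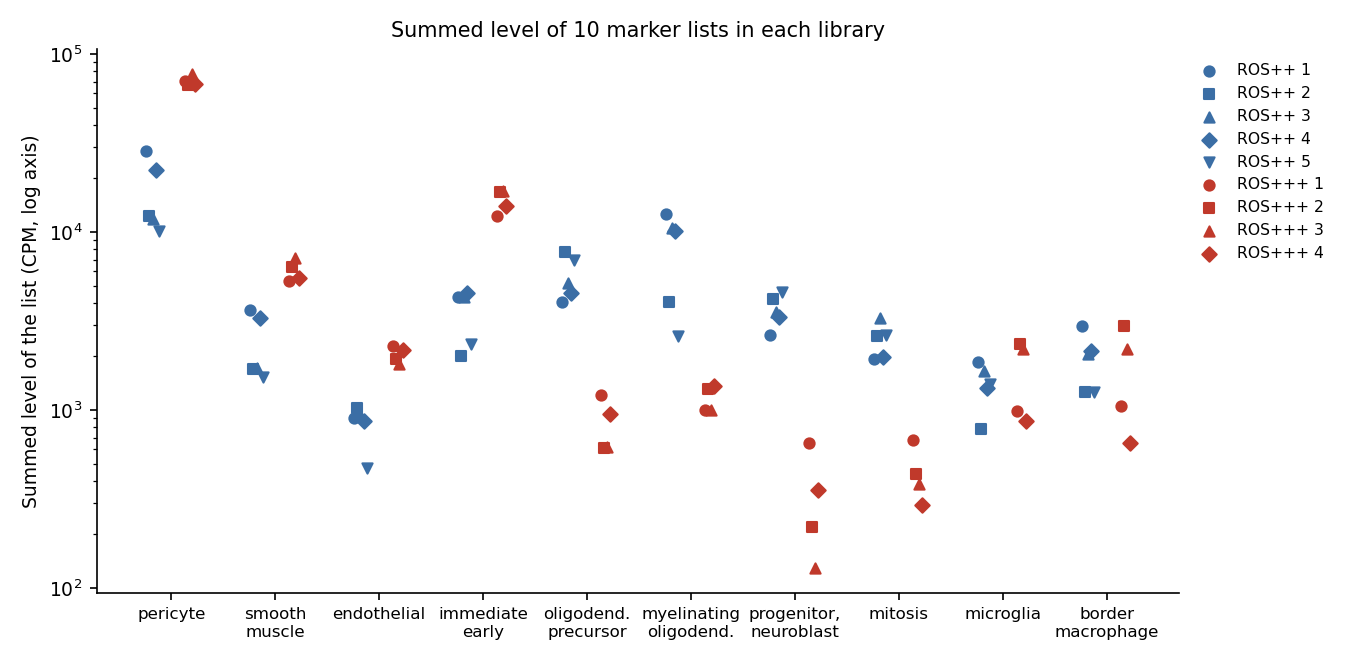
Summed level (y axis, CPM on a log axis) of 10 marker lists (x axis) in each of the 5 ROS++ libraries (blue) and 4 ROS+++ libraries (red), with a marker for the replicate number. Pericyte sums lie at 10144 to 28674 CPM in ROS++ and 66731 to 77178 CPM in ROS+++, sums of oligodendrocyte precursor, progenitor and mitosis genes are lower in every ROS+++ library, and microglial and macrophage sums overlap.

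Genes of the cell cycle were mostly lower in ROS+++. Of 43 DNA replication genes, 36 were lower and none higher with totals, and 33 were lower and 1 higher with factors (median change -1.97 and -1.62). The share of all genes that were lower was 29.2% with totals and 17.1% with factors. Mcm5, a subunit of the replicative helicase, stood at 88.3, 116, 93.5, 70.5 and 174 CPM in ROS++ and at 12.2, 6.18, 10.6 and 8.89 CPM in ROS+++ (change -3.35 ± 0.26, adjusted p = 8.44e-08). Rrm2, the inducible subunit of ribonucleotide reductase, changed by -4.90 ± 0.79 (-3.96 without ROS+++ 3 and -5.61 without ROS+++ 1), and Cdc6, which loads the helicase, by -4.65 ± 0.67. Pola1, the catalytic subunit of DNA polymerase alpha, fell by 2.02 ± 0.29 from 29.5 to 45.9 CPM to 4.17 to 11.8 CPM. The accessory subunit Pola2 was the exception: it was higher with factors (1.32, adjusted p = 0.00815), and with totals it passed without ROS++ 1 or ROS+++ 4 (adjusted p = 0.0213 and 0.0495) but not with all libraries (0.92, adjusted p = 0.0512), and it passed with the 9 libraries alone (adjusted p = 0.0468).

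Of 40 mitosis genes, 38 were lower with totals and 37 with factors, and none was higher (median change -3.62 and -3.39). Among all genes 29.2% and 17.1% were lower. Their summed level was 1930 to 3296 CPM in ROS++ and 674.7, 438, 385 and 291 CPM in ROS+++. Top2a, the topoisomerase that untangles chromosomes before division, stood at 135, 238, 282, 112 and 165 CPM in ROS++ and at 25.6, 8.44, 0.905 and 0.787 CPM in ROS+++ (change -5.03 ± 0.89, adjusted p = 0.00061). Mki67, a protein of the chromosome surface in cycling cells, stood at 52.1, 99.8, 170, 74.7 and 81.2 CPM in ROS++ and at 12.8, 3.39, 0.238 and 3.23 CPM in ROS+++ (change -4.40 ± 0.60, adjusted p = 2.35e-05). ROS+++ 1 was the highest of its class in both, and without it the changes were -5.80 and -4.97. Cyclin B1 (Ccnb1) changed by -5.32 ± 0.75, the mitotic kinase Pbk by -5.96 ± 0.75 and Pimreg, a regulator of the metaphase to anaphase step, by -5.38 ± 0.66. Pimreg rests on 15 reads over the 4 ROS+++ libraries. Without ROS+++ 1 the change of Ccnb1 was -6.08, and without ROS+++ 2 that of Pbk was -6.65. Bub3, a checkpoint protein that cells also use outside mitosis, was not called (change -0.21, adjusted p = 0.163).

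Promoters of these lists are shown because their members fell together. The genes printed were chosen for holding a motif, and some members with larger decreases, among them Ccnb1 and Rrm2, are not printed. TTTGAA, the core of the cell cycle genes homology region, occurred on either strand in 26 of 33 mitosis genes with a window (78.8%), against 14.5% of tested genes, and its form TTCGAA in 3 of 33 (9.09%) against 2.41%. CCAAT occurred in 25 of 33 (75.8%) against 42.8%. Of the E2F sites, TTTCCCGC occurred in 6 of 33 replication genes (18.2%, against 2.34%) and TTTGGCGC in 5 of 33 (15.2%, against 1.08%). Bases before the transcription start follow, with TTTGAA or TTTGGCGC in capitals on whichever strand it lies. They are Top2a at chr11:99024190-99024309 (minus strand), Mki67 at chr7:135716380-135716499 (minus), Kif11, a mitotic kinesin, at chr19:37376262-37376381 (plus), Mcm5 at chr8:75109359-75109508 (plus) and Pola1 at chrX:93632156-93632305 (minus).
Top2a: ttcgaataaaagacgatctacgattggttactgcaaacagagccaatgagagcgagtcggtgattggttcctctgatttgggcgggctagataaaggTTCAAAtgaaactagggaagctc
Mki67: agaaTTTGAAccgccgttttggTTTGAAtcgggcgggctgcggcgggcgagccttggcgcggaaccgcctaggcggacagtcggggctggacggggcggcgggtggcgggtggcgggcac
Kif11: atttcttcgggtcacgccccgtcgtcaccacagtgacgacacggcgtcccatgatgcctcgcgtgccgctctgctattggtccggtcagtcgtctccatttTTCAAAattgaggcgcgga
Mcm5: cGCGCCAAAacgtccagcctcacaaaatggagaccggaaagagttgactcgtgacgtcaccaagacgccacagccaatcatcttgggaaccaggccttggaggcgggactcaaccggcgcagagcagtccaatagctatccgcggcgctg
Pola1: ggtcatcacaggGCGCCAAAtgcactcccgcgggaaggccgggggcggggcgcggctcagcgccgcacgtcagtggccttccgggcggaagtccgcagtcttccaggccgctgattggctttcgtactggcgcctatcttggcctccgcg
Kif11 itself changed by -4.10 ± 0.74 (adjusted p = 0.000392), or by -4.85 without ROS+++ 1.

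Regulators of the G1 phase moved in both directions. Cdk4 changed by -1.51 ± 0.11, from 348 to 454 CPM to 129 to 163 CPM (adjusted p = 6.03e-08), and its partner Ccnd2 fell by 1.38 ± 0.20. The inhibitor Cdkn1a, which encodes p21, stood at 16.3, 12, 13.2, 5.93 and 2.07 CPM in ROS++ and at 26.3, 23.9, 19.4 and 15.3 CPM in ROS+++. Its change was 1.24 ± 0.44 (adjusted p = 0.0346), and the call was lost without ROS++ 4, ROS++ 5, ROS+++ 1, ROS+++ 2 or ROS+++ 3 (adjusted p up to 0.082) and with the 9 libraries alone (adjusted p = 0.0665).

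**Figure D4:**
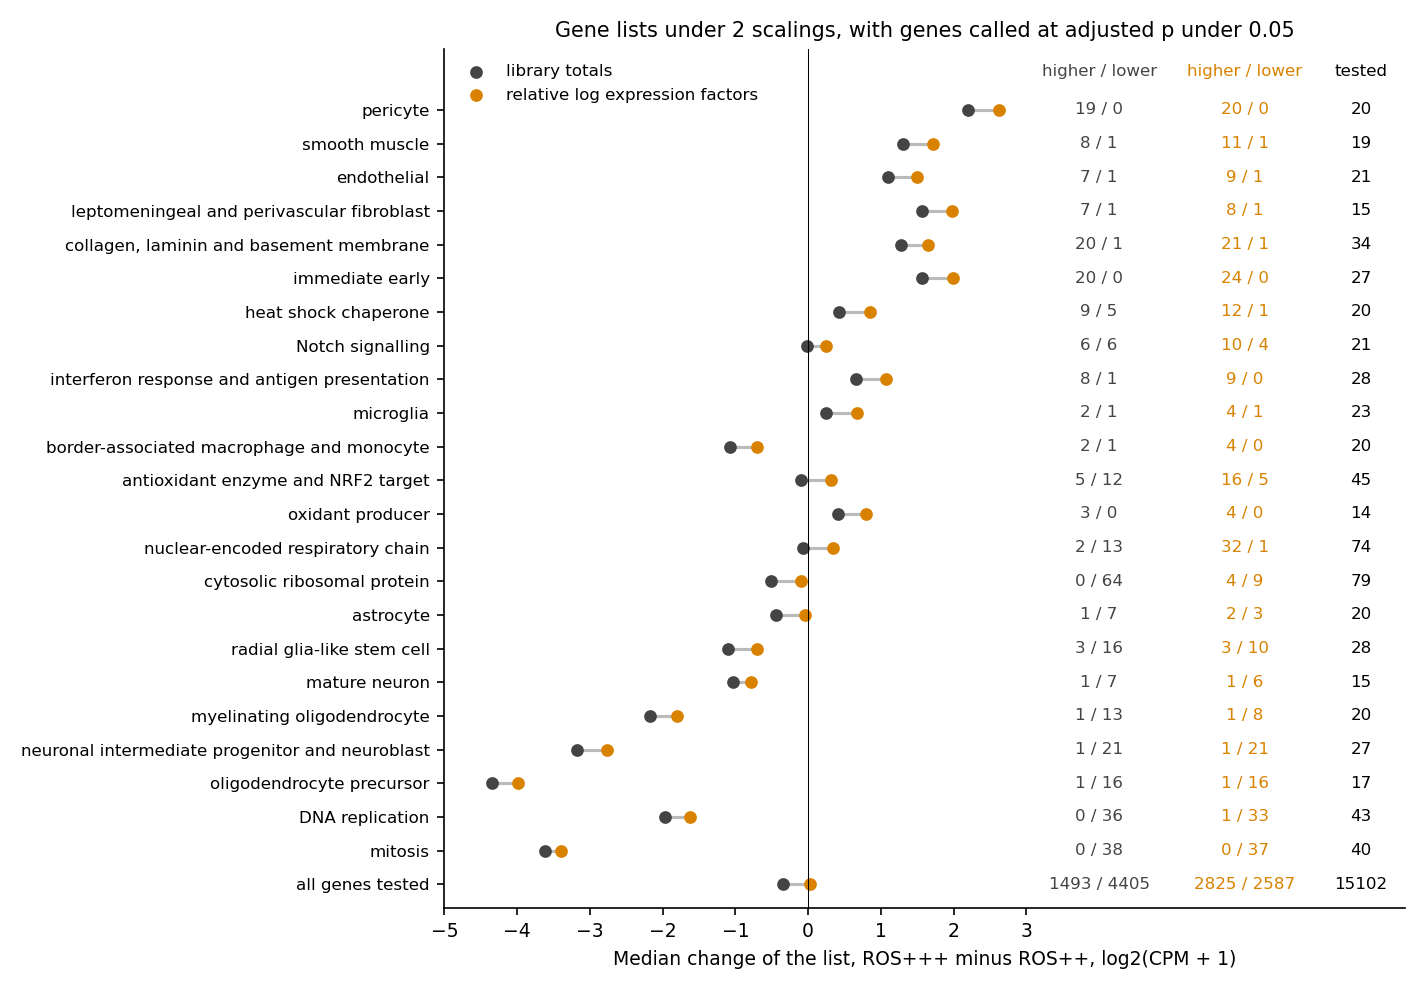
Median change between ROS+++ and ROS++ (x axis, log2(CPM + 1)) of 23 gene lists and of all genes tested, with library totals (grey) and relative log expression factors (orange), and the number of genes called higher and lower under each. The change of scaling moves every list to the right by a similar amount: pericyte genes stay highest (2.20 and 2.62) and oligodendrocyte precursor genes lowest (-4.35 and -3.99), while the ribosomal and respiratory chain lists change their calls.

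Macrophages and microglia contain the phagocyte NADPH oxidase, a known source of superoxide, so their markers were compared as well. Over all genes, 9.89% were higher and 29.2% lower with totals, and 18.7% and 17.1% with factors. Of 23 microglial genes, 2 were higher and 1 lower with totals and 4 and 1 with factors (median change 0.25 and 0.67). Their summed level was 1850, 782.3, 1664, 1328 and 1407 CPM in ROS++ and 991, 2347, 2197 and 864 CPM in ROS+++, which overlapped. The microglial markers Cx3cr1, P2ry12 and Csf1r were not called. Csf1r stood at 132, 63.3, 177, 143 and 152 CPM in ROS++ and at 36.6, 146, 166 and 47.1 CPM in ROS+++. The genes called higher were Olfml3 (0.81 ± 0.20, adjusted p = 0.00341) and Ptprc, the leukocyte antigen CD45 (1.66 ± 0.41, adjusted p = 0.00394), and Sall1 was lower (-1.32 ± 0.34, adjusted p = 0.00557). On the deposited log2 values Ptprc was not called (adjusted p = 0.11). With factors the change of Sall1 was -0.92, and its call was lost without ROS++ 1, ROS++ 3, ROS++ 4, ROS++ 5, ROS+++ 2 or ROS+++ 3 (adjusted p up to 0.152). Without ROS+++ 4 the list had 5 genes higher with totals and 8 with factors, and without ROS+++ 3 it had 2 with factors.

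Of 20 genes of border-associated macrophages and monocytes, 2 were higher and 1 lower with totals and 4 and none with factors (median change -1.08 and -0.70). The shares over all genes were 9.89% higher and 29.2% lower with totals, and 18.7% and 17.1% with factors. ROS+++ 2 and ROS+++ 3 stood above the other 2 ROS+++ libraries: the summed level was 1050, 2978, 2195 and 652 CPM in the 4 ROS+++ libraries, against 1258 to 2950 CPM in ROS++. Mrc1, a mannose receptor, stood at 5.58, 172, 207 and 29.9 CPM in ROS+++ and at 92.4 to 246 CPM in ROS++ (change -1.69, adjusted p = 0.0913), and it was lower without ROS+++ 2 or ROS+++ 3 (adjusted p = 0.0265 and 0.014). The number of the list's genes called lower with totals was 8 without ROS+++ 2 and 6 without ROS+++ 3, and the number called higher was 5 without ROS+++ 4. Lyz2 was higher without ROS+++ 4 (1.03, adjusted p = 0.0169) and not with all libraries (0.54, adjusted p = 0.29). Plac8, a monocyte gene, stood at 18.3, 57.3, 7.29, 0.153 and 0 CPM in ROS++ and at 154, 47.7, 57.7 and 31.2 CPM in ROS+++ (change 3.26 ± 0.94, adjusted p = 0.0113), and was between 2.59 without ROS++ 5 and 4.06 without ROS++ 2. With the 9 libraries alone Plac8 was not called (3.26 ± 1.16, adjusted p = 0.0563), and no gene of the list was higher.

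Since the cells were sorted on an oxidant-sensitive dye, genes that make and remove oxidants were compared. Of 14 oxidant producers, 3 were higher and none lower with totals, and 4 were higher with factors (median change 0.41 and 0.80). Among all genes 9.89% were higher and 29.2% lower with totals, and 18.7% and 17.1% with factors. With totals 5 were higher without ROS+++ 4, and with factors 7 without ROS++ 1. Cybb, the catalytic subunit of the phagocyte NADPH oxidase, stood at 34.6, 33.6, 67.7, 30.1 and 33.7 CPM in ROS++ and at 100, 99.7, 83.4 and 67.9 CPM in ROS+++ (change 1.17 ± 0.29, adjusted p = 0.00349). The lowest ROS+++ library, ROS+++ 4, was level with ROS++ 3, and on the deposited log2 values Cybb was not called (1.19 ± 0.51, adjusted p = 0.0764). Cyba, its membrane partner, was higher by 1.06 ± 0.34 (adjusted p = 0.0191), a call lost without ROS+++ 2 or ROS+++ 3 (adjusted p = 0.0543 and 0.0522) and on the deposited log2 values (adjusted p = 0.0524). Beside these values stand the overlapping microglial and macrophage sums above; their part in the level of the oxidase was not tested.

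Of 45 antioxidant enzymes and targets of NRF2, the transcription factor of the oxidant response, 5 were higher and 12 lower with totals and 16 and 5 with factors (median change -0.10 and 0.32). With totals these shares, 11.1% and 26.7%, were near the 9.89% and 29.2% of all genes, and with factors they were 35.6% and 11.1% against 18.7% and 17.1%. Sod3, the secreted superoxide dismutase, stood at 76.6, 34.7, 35.6, 52.2 and 19.8 CPM in ROS++ and at 192, 174, 223 and 185 CPM in ROS+++ (change 2.25 ± 0.34, adjusted p = 5.82e-05). Gpx8, a peroxidase of the endoplasmic reticulum, rose by 1.49 ± 0.18, from 204 to 340 CPM to 688 to 763 CPM. Gpx1, the cytosolic glutathione peroxidase, rose by 0.95 ± 0.14, and Nfe2l2, which encodes NRF2, by 1.05 ± 0.23. The secreted peroxidase Gpx3 changed by -3.38 ± 0.64 (-2.73 without ROS+++ 1 and -4.03 without ROS+++ 2), and Gclm, the modifier subunit of glutathione synthesis, by -1.36 ± 0.30. The peroxiredoxin Prdx2 fell from 569 to 744 CPM to 263 to 399 CPM (adjusted p = 3.29e-06). With factors the call of Gclm was lost without ROS+++ 2 (adjusted p = 0.056). The intracellular dismutases showed little difference: Sod2 was not called (-0.05 with totals and 0.36, adjusted p = 0.135, with factors), and Sod1 only with factors (0.45, adjusted p = 0.0439), a call lost without ROS++ 1, ROS++ 2, ROS++ 4, ROS+++ 2, ROS+++ 3 or ROS+++ 4 (adjusted p up to 0.172). Prdx1 passed only with factors (0.50, adjusted p = 0.0103). Txnip, an inhibitor of thioredoxin, was at 0.63 (adjusted p = 0.0541) with totals and at 1.05 (adjusted p = 0.00397) with factors, and it passed with totals without ROS++ 4 or ROS+++ 1.

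Lists of energy metabolism held genes called in both directions. Of 22 glycolysis genes, 4 were higher and 5 lower with totals and 11 and 3 with factors (median change 0.14 and 0.55). These were 18.2% and 22.7% with totals, against 9.89% and 29.2% of all genes, and 50% and 13.6% with factors, against 18.7% and 17.1%. With factors 1 was lower without ROS++ 1, ROS++ 5, ROS+++ 1 or ROS+++ 4. Aldoa, an aldolase, rose by 0.79 ± 0.12 and Ldha, a lactate dehydrogenase, by 0.56 ± 0.15. The lactate transporter Slc16a1 fell by 2.19 ± 0.41. Of 33 genes of fatty acid oxidation, 6 were higher and 4 lower with totals and 12 and 3 with factors (median change 0.06 and 0.47), of which 1 was lower with factors without ROS+++ 3. The shares were 18.2% and 12.1% with totals and 36.4% and 9.09% with factors, and with totals 3 were higher without ROS++ 5 and ROS+++ 4 or with the 9 libraries alone. Acsl1, which activates long-chain fatty acids, stood at 92.7, 45, 64.6, 89 and 68.3 CPM in ROS++ and at 258, 268, 247 and 297 CPM in ROS+++ (change 1.92 ± 0.19, adjusted p = 7.38e-07), and Acaa2, a thiolase of mitochondria, rose by 1.50 ± 0.23. Of 32 genes for lipogenesis and cholesterol, 1 was higher and 13 lower with totals and 3 and 9 with factors (median change -0.44 and -0.05). Fasn, the fatty acid synthase, changed by -1.87 ± 0.25, and Scd2, a desaturase, by -1.68 ± 0.14, from 695 to 956 CPM to 189 to 323 CPM. Of 17 genes of the pentose phosphate pathway and NADPH supply, 8 were lower and none higher with totals and 4 and 1 with factors (median change -0.59 and -0.18), with Me1, the cytosolic malic enzyme, at -2.57 ± 0.40 and Tkt, a transketolase, at -1.21 ± 0.16.

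Pathways of stress and secreted signals were mixed. Their counts stand beside 9.89% of all genes higher and 29.2% lower with totals, and 18.7% and 17.1% with factors. Of 28 genes of interferon response and antigen presentation, 8 were higher and 1 lower with totals and 9 and none with factors (median change 0.66 and 1.07), and 4 were higher without ROS+++ 2. Ifitm3 and Ifitm2, membrane proteins that restrict viral entry, rose by 1.65 ± 0.36 and 1.61 ± 0.21. Ifit2 went the other way (-1.18 with totals and -0.78 with factors). Of 31 genes of the TGF-beta and BMP pathway, 5 were higher and 6 lower with totals and 12 and 4 with factors (median change -0.02 and 0.39), and 8 were higher without ROS++ 4. The ligand Bmp5 rose by 2.17 ± 0.34 and the target Id1 by 1.88 ± 0.42, while the ligands Bmp7 and Inhba changed by -2.65 ± 0.50 (-2.05 without ROS+++ 3) and -2.85 ± 0.45 and the target Id2 by -1.40 ± 0.15. Of 31 p53 targets and apoptosis genes, 5 were higher and 7 lower with totals and 9 and 6 with factors (median change -0.12 and 0.29). Perp, a membrane protein induced by p53, rose by 2.24 ± 0.30, and Bid, which promotes apoptosis, changed by -2.38 ± 0.25. The number of p53 genes higher with totals was 2 without ROS++ 4 or ROS+++ 2 and 3 without ROS++ 5. Of 25 genes of the unfolded protein response, 3 were higher and 9 lower with totals and 9 and 3 with factors (median change -0.30 and 0.06). Ppp1r15a, which ends the block of translation, rose by 2.43 ± 0.29, and Asns, the asparagine synthetase, fell by 2.22 ± 0.32.

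For lists of genes that every cell uses, the number of calls depended on the scaling, as it did over all genes. The shares of all genes were 9.89% higher and 29.2% lower with totals, and 18.7% and 17.1% with factors. Of 79 cytosolic ribosomal proteins, 64 were lower and none higher with totals, and 9 were lower and 4 higher with factors (median change -0.51 and -0.10). With factors 14 ribosomal genes were lower without ROS+++ 2 and 5 without ROS+++ 4. Of 74 nuclear-encoded genes of the respiratory chain, 2 were higher and 13 lower with totals, and 32 were higher and 1 lower with factors (median change -0.07 and 0.34). The tricarboxylic acid cycle had 1 of 29 higher and 5 lower with totals and 11 and 1 with factors, the proteasome none of 31 higher and 13 lower with totals and 6 and 1 with factors, and splicing factors none of 47 higher and 22 lower with totals and 9 and 5 with factors. The medians of these 3 lists were -0.07, -0.34 and -0.40 with totals and 0.34, 0.07 and 0.01 with factors. With factors, proteasome and splicing genes were higher at about the share of all genes. Of 7 mitochondrially encoded genes, 6 were lower with totals and 1 with factors (median change -0.40 and 0.01). That gene was mt-Co1, a subunit of cytochrome c oxidase, which stood at 3469, 3052, 3414, 3281 and 3459 CPM in ROS++ and at 2281, 1673, 1375 and 1950 CPM in ROS+++ (change -0.90 ± 0.11 with totals and -0.48 ± 0.11 with factors, adjusted p = 0.00168).

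Single abundant genes show the same dependence. Actb, cytoplasmic actin, stood at 11846, 7339, 14191, 10363 and 10108 CPM in ROS++ and at 10804, 16082, 13472 and 11931 CPM in ROS+++. It was not called with totals (0.30, adjusted p = 0.162), although it passed without ROS++ 3 (0.40, adjusted p = 0.0444), and it was higher with factors (0.71, adjusted p = 0.00316). Cst3, Dpysl2 and Sept2 were likewise higher only with factors (0.57, 0.53 and 0.50, against 0.15, 0.12 and 0.09 with totals). Slc1a3 and Marcks were lower only with totals (-0.88 and -0.64, against -0.46 and -0.22 with factors). For Slc1a3, the glial glutamate transporter, the call with factors was made without ROS+++ 1 or ROS+++ 4 (adjusted p = 0.0479 and 0.0291). Gnb1 and mt-Nd1 were lower with totals (-0.27 and -0.32) and changed sign with factors (0.14 and 0.10, not called), and the call of mt-Nd1 was lost without ROS+++ 3 (adjusted p = 0.0714).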

How the data were processed

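Per the labels' protocols, RNA of sorted cells was copied with a poly-dT primer and template switching (SMARTer Ultra Low kit), amplified for 12 cycles and sequenced without strand or molecular identifiers; the submitters' processing notes name STAR, edgeR and the mm10 build, with no versions. The authors deposited log2 CPM values for 15119 genes. Every column had the same lowest value (-4.36) and the same linear sum (1000736), and taking the added constant off gave whole reads for 100% of values within 0.01 reads. Values of 0 reads stayed at 0 CPM. In the compared libraries 3 reads were 0.128 to 0.236 CPM, a level that covers counting error only. No column was left unused (0).

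From those reads, CPM was recomputed on library totals, and log2(CPM + 1) was fitted with limma 3.58.1 (trend and robust options, R 4.3.3) over all 14 libraries with a mean per ROS class and 11 residual degrees of freedom, for 15102 genes with at least 1 CPM in at least 4 libraries; 17 were left out. The contrast was ROS+++ minus ROS++ with Benjamini-Hochberg adjustment and a threshold of 0.05. The same fit was made after multiplying each library total by its relative log expression factor. Replicate numbers follow accession order and name libraries only. Within a class, pairs of libraries correlated at 0.873 to 0.947 and differed beyond sampling noise, so none was merged. The script was tested on simulated data. Other settings were TMM and upper-quartile factors, a smaller pseudocount (0.25), the deposited values, no filter and a filter of 10 CPM, 9 libraries only, voom weights on the reads, reads thinned to 12704227 per library, each library left out, and a block by sets of library numbers. Leaving out libraries with factors, and both compared libraries without Y-linked reads (with and without the third such library, in ROS+), were added after seeing the data.

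Symbols and coordinates are from GENCODE M21 (15060 genes with a symbol), promoter windows from RefSeq (GRCm38.p6), searched for 9 motifs. The 41 gene lists, the groups compared and the genes named were chosen with earlier results of these data known. Named genes were the 12 largest increases and decreases that passed with both scalings without overlap; for each list, the largest called increase and decrease and up to 3 with the smallest p; the 10 with the highest mean per class; the 5 most abundant that were lower only with totals or higher only with factors; and fixed markers. Some genes that this rule names are not reported here. Further members were named after their values were seen. Counts of calls over lists have no test of their own.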

Additional observations from a re-analysis of the deposited data

Results flagged for a closer look

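In 27 of 454 groups of values tested (5.95%), 1 library lay far from the rest of its class, by a gap that chance gives in about 1 in 20 groups. The following values are those libraries, in CPM.

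In ROS++, the library ROS++ 3 stood high for Col1a1 (48.5), Insm1 (33.3), Cybb (67.7) and Fasn (125). ROS++ 5 stood low for Hes1 (21.6) and for the summed astrocyte (2710) and endothelial (474) genes, and high for Cdc6 (73.2). ROS++ 1 stood low for Cdk4 (348) and high for the summed interferon and antigen presentation genes (3890), and ROS++ 2 stood high for Reln (2.79).

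In ROS+++, the library ROS+++ 1 stood high for Olfm2 (22.3), Ccnb1 (9.26), Ube2c (7.49), Cdc6 (4.58), Kif11 (21.1) and Taldo1 (286), and low for Txnip (306). Of these, Ccnb1, Ube2c, Cdc6 and Kif11 are genes of the cell cycle. ROS+++ 3 stood high for Dnaja1 (804), Hspd1 (223), Nuak2 (118) and Tbx15 (63.1). ROS+++ 2 stood high for Pbk (12.5), Lum (13.8) and Bhlhe22 (11.2). ROS+++ 4 stood low for Dusp1 (291) and high for Inhba (1.42). None of these libraries was left out of the values in the report for this reason.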

How the results depend on the processing

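The scaling moved the counts most. Against 1493 genes higher and 4405 lower with totals, TMM factors gave 2461 and 2844, relative log expression factors 2825 and 2587, and the replicate block with those factors 2903 and 2652. Upper-quartile factors gave 2236 and 3040. The other settings on totals gave 1183 to 1562 higher and 3563 to 4580 lower. Leaving out 1 library gave 1262 to 1533 higher and 3811 to 4622 lower with totals, and 2377 to 2870 and 2225 to 2614 with factors.

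Of 188 genes chosen by the naming rule, some of them not described above, 4 changed sign from a call with totals: Cs to 0.07 with relative log expression factors and 0.09 with the block added, mt-Cytb to 0.01 and 0.04, mt-Nd1 to 0.10 and 0.12 (0.01 with TMM), and Gnb1 to 0.14 and 0.18 (0.06 with TMM, 0.01 with upper-quartile factors). Of 159 called with totals, 9 lost the call without some 1 library and 0 changed sign.

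Library numbers were not taken to pair the samples, since the labels do not say what they mean. Also, only 1 of 4 pairs from the same set of consecutive numbers correlated above 0.1. Deviations of libraries in these pairs correlated at 0.231, 0.0958, 0.0827 and 0.0868. However, ROS+++ 1, ROS+++ 2 and ROS+++ 4 each correlated best with the ROS++ library of their own set. ROS+++ 3 correlated best with ROS++ 1 (0.161). All 4 correlations within a set were above 0. The 3 libraries without Y-linked reads (ROS+ 5, ROS++ 5 and ROS+++ 4) form 1 such set. Whether a set shares its source was not tested. The replicate block on totals gave 1554 higher and 4580 lower, with Lum among the lower (-2.68, adjusted p = 0.0354). With the block and relative log expression factors Acta2, Tagln and Myh11 were called higher (1.56, 1.40 and 1.86, adjusted p = 0.0107, 0.0104 and 0.0103), Myh11 also with the block on totals (adjusted p = 0.039), as was Vtn (2.59, adjusted p = 0.00644), and Sall1 was not called with the block and factors (adjusted p = 0.0749).

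Leaving out ROS++ 5 and ROS+++ 4, alone or with ROS+ 5, was chosen after seeing the data. Depth limits genes with few reads: 3 reads were 0.128 to 0.236 CPM, and fitted changes of such genes depend on the added constant.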
